A study of Drosophila melanogaster with 6 samples.

Results

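Chromosome 4 of Drosophila melanogaster holds 80 protein-coding genes of the 13986 in the annotation, and 75 of them are described here against the peaks of tagged Cyclin G in wing imaginal discs. Members were chosen by their location on sequence 4 and not by a peak, and RpS3A, ND-49, ATPsynbeta, eIF4G1 and pho were left out of the counts. The choice of this chromosome was made with earlier results of these peaks known, so every count below is a description and was not tested. The ChIP was made with an anti-Myc antibody on wing discs of female larvae of the third instar labelled UAS-Myc-CycGdeltaP, da-Gal4/+, a genotype that the study's methods write as +/UAS-CycGdeltaP; da-Gal4/+. These larvae express a Myc-tagged Cyclin G without its PEST-rich degradation domain under the ubiquitous daughterless driver, and gave 2 ChIP replicates with 2 inputs. Mock libraries, 1 ChIP and 1 input, came from da-Gal4/+ discs, which carry the driver but no tagged protein. Each ChIP used 600 discs. The tagged protein is an added copy, so its peaks are those of expressed Myc-CycGdeltaP and not of endogenous Cyclin G. Library preparation also differed between the genotypes, with 38 ng of DNA and 75 bp reads for the tagged discs, against 5 ng and 50 bp reads for the mock.

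The deposited list has 3363 peaks on the dm6 build, with a sequence, a start and an end for each and no height, score or value per library. It merges both replicates, so no value below has a replicate error. Intervals are 95% Wilson intervals and cover counting error only, and neighbouring genes that share a peak are not independent counts. The depth behind each peak was not analysed here, and signal of the mock ChIP at these places was not analysed here.

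Cyclin G is an atypical cyclin of the fly that binds chromatin together with Enhancers of Trithorax and Polycomb, proteins that keep genes in an active or repressed state. Chromosome 4, the dot chromosome, is the smallest of the fly's chromosomes. Repeats lie between and within its genes, and much of its gene-bearing arm carries the heterochromatin protein HP1a together with the chromosome-specific protein POF. Its genes are nevertheless expressed, and they include selector genes of the eye, effectors of the Hedgehog and Wingless pathways, guidance receptors and housekeeping genes. A peak over a transcript start (TSS) places the tagged protein at a promoter, the stretch from which RNA polymerase II begins a transcript.

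Of the 75 genes, 21 had a TSS inside a peak (28%, interval 19.1% to 39.0%). Over all protein-coding genes of dm6 the share was 5.68%. In order along the chromosome, 20 of the TSS-bound genes were PlexB, anne, Arl4, CG31998, Crk, Rad23, Zip102B, Rnf11, Hcf, Eph, gw, CG11360, Gyf, 4E-T, PlexA, Zyx, apolpp, Arf4, Dyrk3 and Cadps. A further 2 genes, Asator and Mitf, had a peak in the gene body but over none of their starts (2.67%, interval 0.734% to 9.21%), against 1.89% of all protein-coding genes. The remaining 52 genes had no peak anywhere between their annotated ends (69.3%). Among the 5 genes left out, RpS3A, ND-49 and eIF4G1 were TSS-bound, and ATPsynbeta and pho had no peak.

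The share on chromosome 4 was set beside other parts of the genome cut into bins of 200 kb. A bin was called repeat-rich from 30% of repeat-masked bases. On the other arms, 595 of 13521 genes in repeat-poor bins were TSS-bound (4.40%, interval 4.07% to 4.76%), and on the X alone 154 of 2101 (7.33%). In the 7 bins of chromosome 4 the repeat-masked share ran between 21.6% and 35.2%, where the median repeat-poor bin of the other arms had 16.4%. In bins of the other arms within that same range, with histone cluster genes set aside, 82 of 1192 genes were TSS-bound (6.88%, interval 5.58% to 8.46%). The interval of chromosome 4 lay above each of these 3 intervals. In repeat-rich bins of the other arms the share was 163 of 344 genes (47.4%), and 62 of 233 without the histone cluster genes (26.6%, interval 21.3% to 32.6%), which overlapped the interval of chromosome 4.

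**Figure D1:**
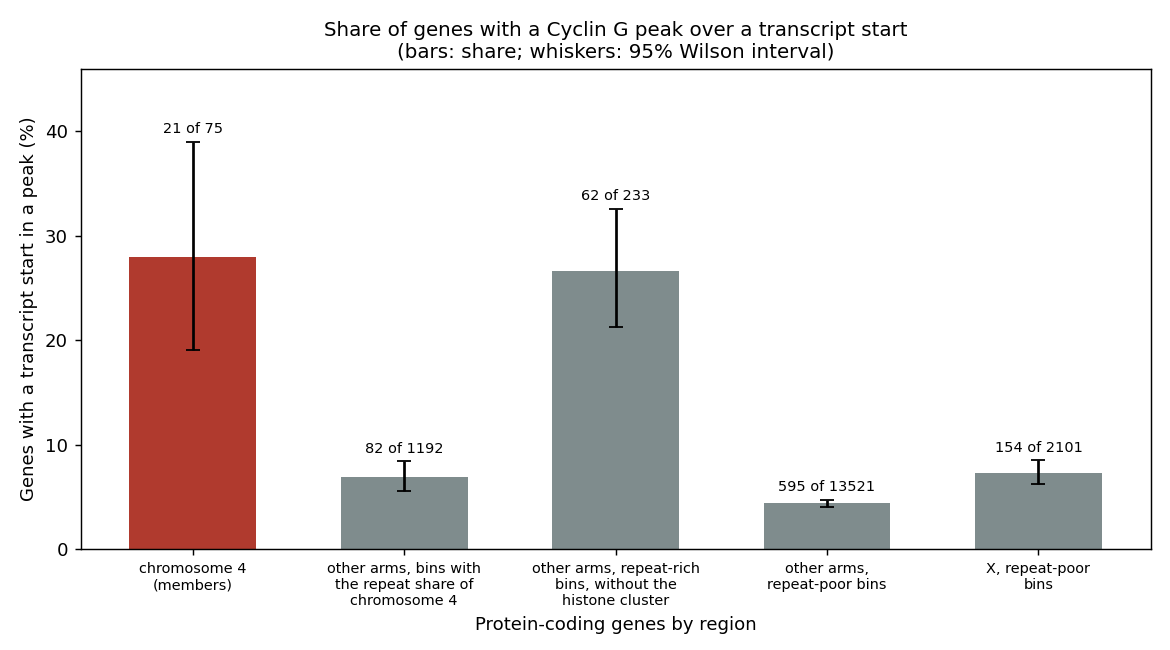
Percent of protein-coding genes with a transcript start inside a Cyclin G peak (y axis) by region (x axis). Bars are shares, whiskers are 95% Wilson intervals and the counts stand above. The bar of chromosome 4 is at 28%, that of bins with a like repeat share is at 6.88%, and that of repeat-rich bins without the histone cluster is at 26.6%.

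The promoters below are shown because they carry the motifs described further on, or stand for the genes without a peak. Each is the RefSeq dm6 sequence from 100 bases before the start to 29 bases after it, on the strand of the gene, 5′ to 3′. Capitals mark matches on either strand to the DNA replication-related element (DRE, TATCGATA), to its inner word CGATA and to the Motif 1 core GGTCACAC. On the strand of the gene they also mark the TATA box TATAAA and the initiator TCANTN, where the first N had to be G or T and the other N C or T. The DRE is bound by DREF and Motif 1 by M1BP, factors of housekeeping promoters, whereas the initiator lies at the start itself in focused promoters of developmental genes. The TSS-bound genes come before the genes without a peak.
Hcf, chr4:359838-359967, plus strand: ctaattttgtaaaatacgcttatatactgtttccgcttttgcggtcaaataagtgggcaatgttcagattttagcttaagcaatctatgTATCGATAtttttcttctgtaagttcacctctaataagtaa
PlexA, chr4:1027072-1027201, minus strand: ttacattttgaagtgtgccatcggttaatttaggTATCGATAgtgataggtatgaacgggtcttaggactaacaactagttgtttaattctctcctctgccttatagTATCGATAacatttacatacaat
Eph, chr4:610584-610713, plus strand: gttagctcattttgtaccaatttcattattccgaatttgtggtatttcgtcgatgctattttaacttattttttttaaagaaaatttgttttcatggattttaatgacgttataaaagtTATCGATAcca
PlexB, chr4:43749-43878, minus strand: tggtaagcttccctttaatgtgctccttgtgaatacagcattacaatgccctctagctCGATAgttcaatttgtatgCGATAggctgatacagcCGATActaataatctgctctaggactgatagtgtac
gw, chr4:660579-660708, minus strand: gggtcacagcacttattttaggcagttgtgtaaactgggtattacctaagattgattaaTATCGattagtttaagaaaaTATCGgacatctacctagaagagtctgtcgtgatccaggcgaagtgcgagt
Rad23, chr4:307993-308122, plus strand: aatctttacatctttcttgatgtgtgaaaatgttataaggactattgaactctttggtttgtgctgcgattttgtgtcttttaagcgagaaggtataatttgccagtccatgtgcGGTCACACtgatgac
apolpp, chr4:1060869-1060998, plus strand: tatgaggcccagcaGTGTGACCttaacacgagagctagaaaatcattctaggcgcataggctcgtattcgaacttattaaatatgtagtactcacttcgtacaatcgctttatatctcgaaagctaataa
Dyrk3, chr4:1230684-1230813, minus strand: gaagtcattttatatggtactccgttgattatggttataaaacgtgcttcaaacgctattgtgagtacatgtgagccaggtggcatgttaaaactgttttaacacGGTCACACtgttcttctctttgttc
Cadps, chr4:1230737-1230866, plus strand: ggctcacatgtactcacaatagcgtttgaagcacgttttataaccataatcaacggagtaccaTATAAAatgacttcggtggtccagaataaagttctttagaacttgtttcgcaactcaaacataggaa
PIP4K, chr4:1196819-1196948, minus strand: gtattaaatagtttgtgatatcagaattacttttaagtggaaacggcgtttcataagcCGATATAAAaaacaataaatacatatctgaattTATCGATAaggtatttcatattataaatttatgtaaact
Taf3, chr4:466799-466928, minus strand: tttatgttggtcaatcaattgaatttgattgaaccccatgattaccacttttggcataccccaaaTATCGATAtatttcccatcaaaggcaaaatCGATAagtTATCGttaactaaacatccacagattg
onecut, chr4:607620-607749, minus strand: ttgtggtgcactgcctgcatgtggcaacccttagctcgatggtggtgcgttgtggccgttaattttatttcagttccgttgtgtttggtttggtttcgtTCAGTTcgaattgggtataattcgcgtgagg
mGluR, chr4:936719-936848, plus strand: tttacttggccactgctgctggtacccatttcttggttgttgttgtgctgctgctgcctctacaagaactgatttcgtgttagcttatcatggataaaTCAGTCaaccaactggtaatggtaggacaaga
zfh2, chr4:501710-501839, plus strand: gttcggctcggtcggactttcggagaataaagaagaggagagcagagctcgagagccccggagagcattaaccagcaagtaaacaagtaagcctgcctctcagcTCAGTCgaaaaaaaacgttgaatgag

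Of 12 genes in a mixed list of RNA regulators, protein turnover genes, trafficking genes and transporters, 9 were TSS-bound, against 21 of all 75 genes and 5.68% of all protein-coding genes. The other 3, PMCA, Slip1 and yellow-h, had no peak. The list was assembled with the peaks known, and its count depends on which genes were placed in it. Gat, also a transporter gene, was placed with the synaptic genes and had no peak. JYalpha and Mpv17, genes of membrane proteins, stood in no list and had no peak either. As yellow-h belongs to none of the kinds named, 9 of 12 is not a rate for those kinds. The peak over gw, which encodes the GW182 protein that silences mRNAs together with Argonaute and microRNAs, lay at chr4:660533-660804 around the start at 660608. The eIF4E-binding repressor gene 4E-T had its peak at chr4:958294-958602 and Gyf, a gene for a GYF-domain protein, at chr4:866954-867289. Rad23, whose protein carries ubiquitinated proteins to the proteasome, had a peak at chr4:307873-308171. Zip102B, a gene of the zinc transporter family, and Rnf11, which encodes a RING-finger protein, start 836 bp apart in opposite directions. Each had a peak of its own, at chr4:313825-314136 and chr4:314715-314991. The small GTPase genes Arl4 and Arf4 were bound at chr4:179316-179605 and chr4:1123986-1124186. apolpp, the gene of the lipid carrier apolipophorin, shared its peak with Zyx.

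Receptor and cytoskeletal genes were bound in part. For comparison, 21 of all 75 genes (28%) and 5.68% of all protein-coding genes were TSS-bound. Of 8 genes for ligands and receptors, 3 were TSS-bound and 5 had no peak. The 3 are receptor genes, but receptor genes without a peak, among them mGluR, were placed with the synaptic genes. Both plexin genes, whose proteins are receptors of semaphorins, had a TSS in a peak, PlexB at chr4:43660-43976 and PlexA at chr4:1027037-1027470. At 434 bp, the PlexA peak was the widest over a TSS on this chromosome. Eph, the Eph receptor tyrosine kinase gene, had a peak of 169 bp at chr4:610536-610704, while its ligand gene Ephrin had none. The ligand genes of the activin and TGF-beta family, Actbeta, mav and myo, and the immunoglobulin-domain gene dpr7 had no peak. Of 5 genes listed as cytoskeletal or adaptor genes, the SH2-SH3 adaptor gene Crk (chr4:210066-210353) and the zyxin gene Zyx (chr4:1060799-1061142) were TSS-bound. Ank, Cals and bt were not. Cals encodes calsyntenin, a transmembrane protein, so its place in this list is open to question. The kinesin gene Kif3C stood in no list and had no peak.

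Among 6 kinase genes, Eph and Dyrk3, a dual-specificity kinase gene, were TSS-bound, Asator had a peak in its body, and CaMKII, PIP4K and the titin-like kinase gene bt had none. CaMKI, a further kinase gene that this list did not hold, had no peak either, with its nearest start 20633 bp away. Of 7 synaptic genes, 1 was TSS-bound. This was Cadps, whose protein primes dense-core vesicles, in a peak it shared with Dyrk3 at chr4:1230633-1230928. The other 6, CG11155, Ekar, Gat, Syt7, mGluR and unc-13, had no peak. Both lists are small, beside TSS-bound shares of 28% over all 75 genes and 5.68% over all protein-coding genes.

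Of 18 genes listed for transcription and chromatin, 1 was TSS-bound, against 21 of all 75 genes of the chromosome and 5.68% of all protein-coding genes. This was Hcf, at chr4:359689-360059. It encodes host cell factor, a subunit shared by several chromatin-modifying complexes. Mitf, a regulator of lysosomal genes, had a peak in an intron, and the other 16 genes had no peak. These were ci, the Hedgehog effector, pan and lgs, which act in the Wingless pathway, the Pax genes ey, toy and sv, and the factor genes zfh2, onecut, Sox102F, fd102C, dati, fuss and NfI with MED26, Pur-alpha and Tdg. Of 21 genes in no list, 4 were TSS-bound, among them anne (chr4:131972-132280), CG31998 (chr4:205885-206170) and CG11360 (chr4:670903-671154). Taf3, a gene of the transcription machinery, was also in no list and had no peak. The lists were made with earlier results of these peaks known, and bt and Eph stand in more than 1 of them.

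Bound genes lay along the whole length of the chromosome with gaps. In successive bins of 200 kb the TSS-bound genes numbered 4 of 11, 6 of 15, 0 of 10, 3 of 13, 2 of 8, 4 of 16 and, in the last and shorter bin, 2 of 2. Neighbours were bound together in places, as in the run of 3 genes Rad23, Zip102B and Rnf11 (chr4:308093-331387). The longest run of the 75 genes without a TSS in a peak held 12 genes, dati through onecut, over chr4:375640-607649. The body peak of Asator and the peak over ND-49, a left-out gene, lay within this run. The third bin, where no TSS of these genes was in a peak, had 28.6% of its bases repeat-masked, close to the 28.1% of the whole chromosome. Of its 75 bp words, 95.8% occurred once in the genome, against 88.2% of the words of the chromosome and 50.1% of those of the last bin. Why no TSS of these genes lay in a peak in the third bin was not tested.

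**Figure D2:**
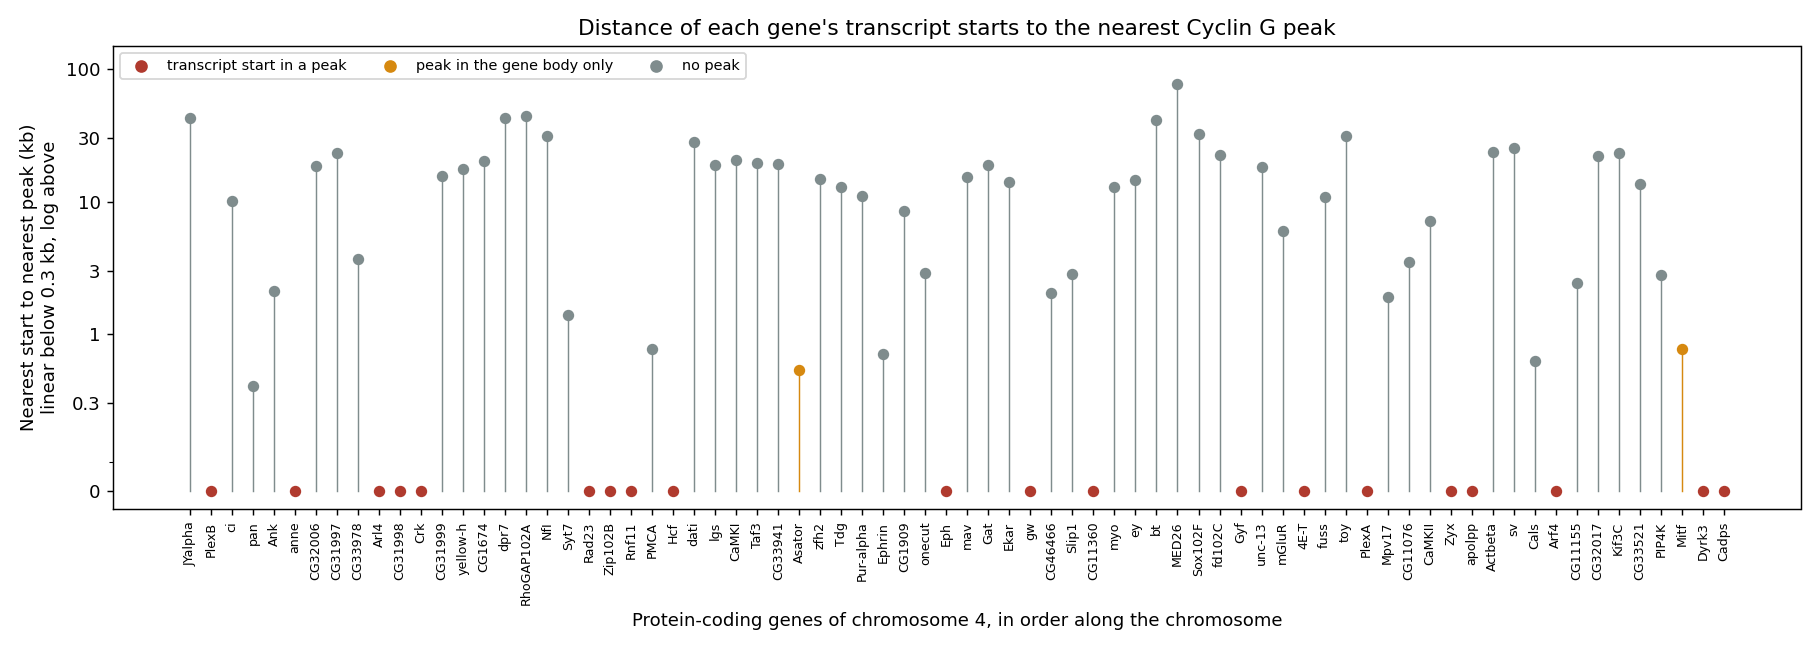
Distance in kb between the nearest transcript start of each gene and the nearest Cyclin G peak (y axis, linear below 0.3 kb and log above) for 74 of the genes in order along chromosome 4 (x axis). Red points are the 20 drawn genes with a start in a peak and stand at 0, orange points are the 2 genes with a peak in the body, and grey points are the 52 genes without a peak, which lie between 404 and 77976 bp.

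The covered starts of bound genes lay at least 12 bp inside a peak, and every start of an unbound gene lay at least 404 bp outside. Of the TSS-bound genes, CG11360 had its covered start nearest to a peak edge, at 12 bp, followed by Arf4 at 19 bp, Eph at 20 bp, Zip102B at 49 bp and both CG31998 and anne at 60 bp. The unbound gene nearest to a peak was pan, with its first start 404 bp from a peak at chr4:68707-68922. This 216 bp peak covered no gene and its sequence was unique. For 4 further unbound genes the nearest peak was the promoter peak of a neighbour: Cals at 629 bp from the peak of Arf4, Ephrin at 706 bp from that of ND-49, PMCA at 772 bp from that of Hcf and Syt7 at 1392 bp from that of Rad23. Over all 52 unbound genes the median distance was 15126 bp, and MED26 was farthest at 77976 bp. Long genes were among those without a peak. The 5 longest were bt with 52075 bp, pan with 44945 bp, unc-13 with 44508 bp, zfh2 with 39065 bp and Sox102F with 33958 bp. The longest TSS-bound gene was Cadps with 40923 bp. Median gene length was 10904 bp in TSS-bound and 9879 bp in unbound genes, and the ranges between the quartiles overlapped (5625 to 15617 bp and 6232 to 18693 bp).

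Peaks over starts were narrow and lay mostly upstream. The 22 peaks over a TSS on chromosome 4, those of left-out genes included, had widths between 162 and 434 bp (median 298 bp), where the 504 such peaks in repeat-poor bins of the other arms had a median of 308 bp. Only the peaks of Hcf and PlexA reached the median width of the whole list, 365 bp, so that counting wider peaks alone would leave 2 TSS-bound genes in place of 21. The peak centre lay upstream of the nearest covered start in 21 of 22 peaks, at a median of -68.8 bp (quartiles -84.8 and -56.6 bp). In repeat-poor bins of the other arms the median was -72.8 bp and 96.4% of centres lay upstream. In repeat-rich bins of the other arms it was -13.5 bp and 56.3%, but there the peaks over histone cluster genes were not set aside. For the 21 bound genes the peak reached a median of 210 bp before the first covered start and 78 bp past it. PlexA had the longest reach upstream with 369 bp, and CG11360 the shortest downstream with 12 bp.

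**Figure D3:**
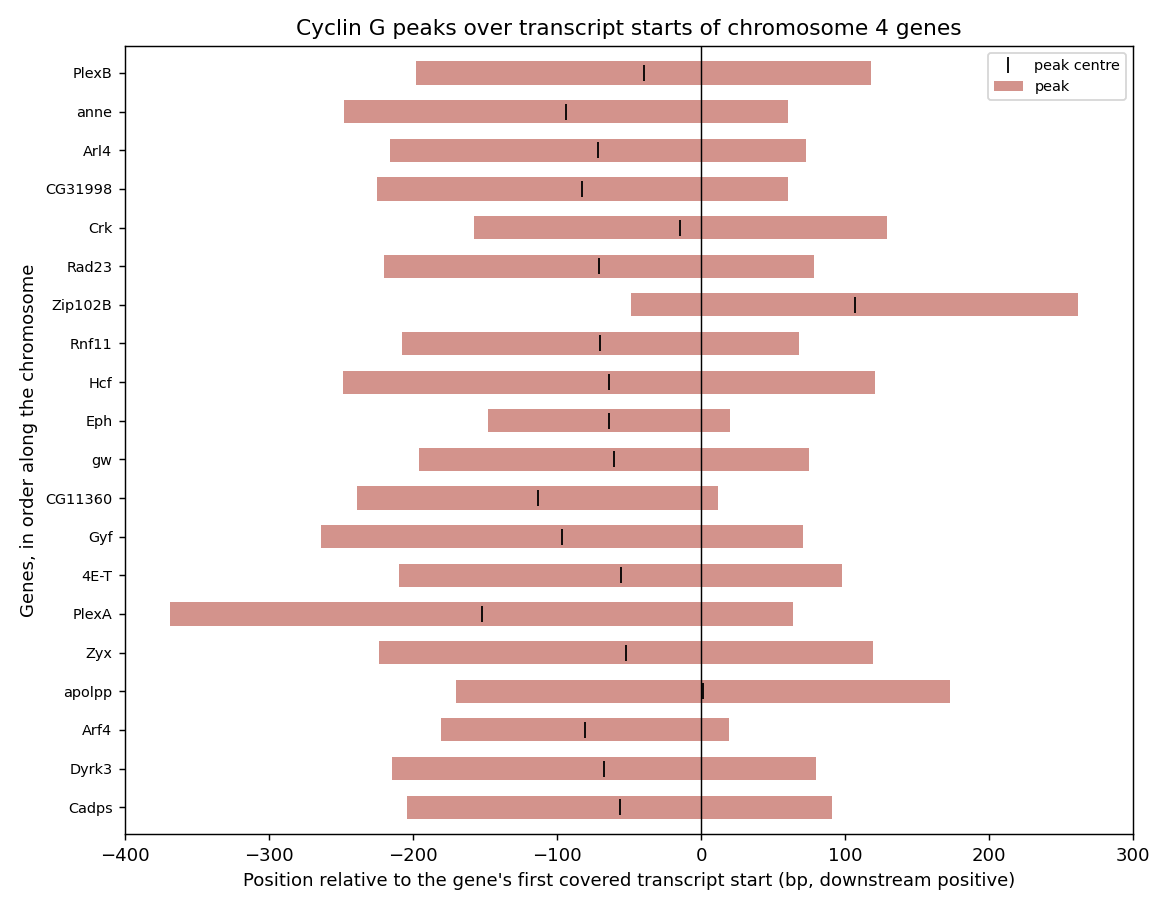
Peaks over the starts of 20 TSS-bound genes (y axis, in chromosomal order), drawn by distance in bp from the first covered start of each gene (x axis, downstream positive). Bars are peaks and ticks are their centres. Most centres lie left of the start, and the centre of Zip102B lies at 106.5 bp, with its second start also inside the peak.

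Many genes of this chromosome have more than 1 annotated start. Of the 21 TSS-bound genes, 12 had 1 start and 9 had more. In 8 of these 9 the covered start was the first, the 5′-most. Zyx was the exception. Its peak lay over its second start, used by 3 of its 5 transcripts, and its first start was 3859 bp from any peak. The covered start of Zyx lies 51 bp from the start of apolpp on the other strand. Zip102B alone had every start covered, and its 2 starts lie 174 bp apart. Counted over starts, 22 of the 34 starts of bound genes were inside a peak.

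Apart from that of Zyx, the starts left uncovered lay inside the gene, downstream of the covered one. In anne they were 2546 and 4052 bp downstream, in CG11360 9128 and 9451 bp and in apolpp 1709 and 3937 bp. Some were close to the peak all the same. The second start of 4E-T was 124 bp outside the peak and that of gw 550 bp. The covered start did not always serve most transcripts. It served 5 of 9 transcripts in anne and 3 of 4 in 4E-T, but 2 of 5 in gw, 1 of 4 in apolpp and 1 of 5 in Cadps, whose other 4 transcripts start 1046 bp downstream. Among unbound genes 27 had 1 start and 25 had more. The list does not say which of these starts are used in wing discs.

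A peak lay over the starts of 2 genes at 2 places, the Zyx and apolpp promoter and the Dyrk3 and Cadps promoter, whose starts lie 124 bp apart. These were 2 of 22 peaks (9.09%, interval 2.53% to 27.8%), against 17.7% of TSS peaks in repeat-poor bins of the other arms, which lies inside the interval. A partner on the other strand started within 1000 bp for 7 of 21 TSS-bound genes (33.3%, interval 17.2% to 54.6%) and 12 of 52 unbound genes (23.1%, interval 13.7% to 36.1%). In the Arf4 and Cals pair, 810 bp apart, the peak lay over Arf4 only.

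Promoter composition was compared within 100 bp of 1 start per gene, the first covered start for bound genes and the first start for unbound ones. GC content had a median of 34.8% in TSS-bound and 35.1% in unbound genes of chromosome 4. The bound promoters spread less, with quartiles at 31.8% and 36.3% against 30.8% and 41.9%. Both medians were below those of the rest of the genome, 42.3% for bound and 40.8% for unbound genes. The repeat-masked share near the start had a median of 13.4% in TSS-bound and 16.4% in unbound genes. Every 75 bp word near the start was unique in 21 of 21 TSS-bound and 50 of 52 unbound genes, and 75 bp is the read length of the tagged libraries.

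DRE and Motif 1 sites had higher shares in bound than in unbound promoters, on small counts. The DRE was within 100 bp of the start in 4 of 21 TSS-bound genes, Crk, Eph, Hcf and PlexA (19.0%, interval 7.67% to 40%). It was present in 2 of 52 unbound genes, PIP4K and Taf3 (3.85%, interval 1.06% to 13%), and in 7.82% of all protein-coding genes. PlexA has it in 2 places, at 66 bases before the start and 7 bases after it, as the capitals in its sequence show. In Hcf it begins 11 bases before the start, and in Eph and Crk 19 and 26 bases after it. The Motif 1 core was near the start of 4 of 21 TSS-bound genes, Dyrk3, Rad23, Zyx and apolpp (19.0%, interval 7.67% to 40%), and of 0 of 52 unbound genes (interval up to 6.88%). Over all protein-coding genes its share was 6.78%. Zyx and apolpp share 1 site, so the 4 genes hold 3 distinct sites. Either motif was found in 8 of 21 bound promoters (38.1%, interval 20.8% to 59.1%) and in 2 of 52 unbound ones (3.85%, interval 1.06% to 13%). The motifs were planned singly, and taking them together was not planned. The share with either motif was not counted over all protein-coding genes or over bound genes of the other sequences. Whether it is particular to this chromosome can therefore not be told. Counted by peak, genes in a shared peak count once. Matches within 100 bp of the start count, also those outside the peak. Either motif was found at 7 of 19 peaks over these starts (36.8%, interval 19.1% to 59%). The DRE was found at 4 (21.1%, interval 8.51% to 43.3%) and the Motif 1 core at 3 (15.8%, interval 5.52% to 37.6%). The DRE of Eph lies mostly past the edge of its peak. By peak, the interval for either motif lay above that of the unbound genes, and the intervals for each motif alone overlapped theirs. On the other sequences 15.6% of TSS-bound genes had the DRE and 16.0% the Motif 1 core, both within the intervals of bound chromosome 4 genes.

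The inner word of the DRE, CGATA, was searched after the sequences had been seen. It was within 100 bp of 13 of 21 bound starts (61.9%, interval 40.9% to 79.2%), of 18 of 52 unbound starts (34.6%, interval 23.2% to 48.2%) and of 39.4% of all protein-coding starts. These intervals overlap, and every DRE contains the word on both strands. PlexB shows it in 3 places and gw in 2 without a full DRE.

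The initiator was found in unbound promoters of the chromosome only. It was within 10 bp of 0 of 21 bound starts (interval up to 15.5%) and of 8 of 52 unbound starts (15.4%, interval 8.01% to 27.5%), among them onecut, mGluR and zfh2. Its share was 12.1% over all protein-coding genes and 2.85% over TSS-bound genes of the other sequences. The intervals of bound and unbound genes of chromosome 4 overlapped. The GAGA element GAGAG was found in 5 of 21 bound and 11 of 52 unbound promoters, close to its 22.5% of all genes. The E-box CACGTG, a word bound by Myc, was in 0 bound and 1 unbound promoter, that of Sox102F, and in 2.87% of all genes. The E-box CAGCTG was in 0 bound and 3 unbound promoters, against 13.8% of all genes. A TATA box 20 to 40 bp before the start was seen in Cadps among bound and PIP4K among unbound genes, against 7.05% of all genes.

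**Figure D4:**
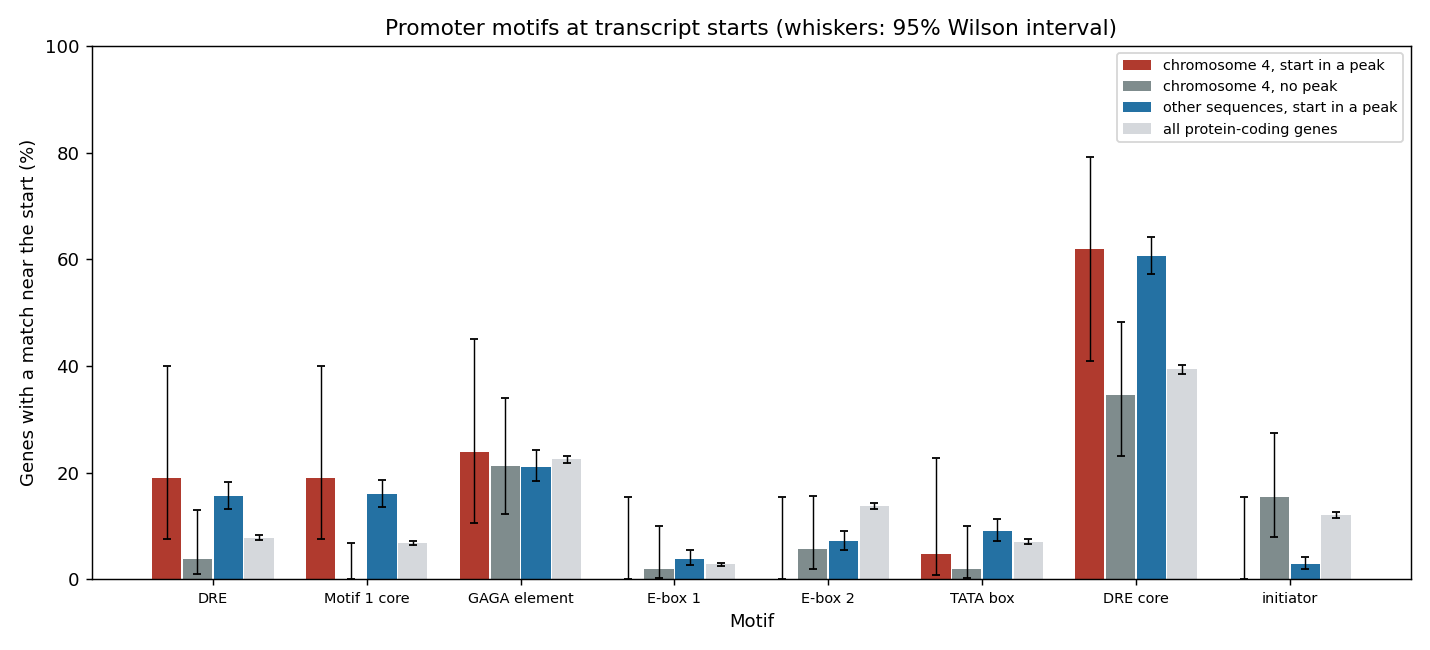
Percent of genes with a motif match near the start (y axis) for 8 motifs (x axis), with 95% Wilson intervals as whiskers. The groups are TSS-bound and unbound genes of chromosome 4, TSS-bound genes of other sequences and all protein-coding genes. E-box 1 is CACGTG, E-box 2 is CAGCTG and DRE core is CGATA. The DRE and Motif 1 core bars of bound chromosome 4 genes are at 19.0%, and their initiator bar is at 0.

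Seen over peaks, 40 of the 3363 peaks were on chromosome 4 and covered 14046 bp. Of these, 22 covered a TSS of a protein-coding gene (55.0%, interval 39.8% to 69.3%), 19 of them a TSS of the 75 genes. The share was 49.6% in repeat-poor bins and 9.15% in repeat-rich bins of the other arms, peaks over histone cluster genes included. A further 7 peaks lay in a gene body and 11 in neither. Among the 22 TSS peaks, only that of Gyf overlapped an annotated mobile element, INE-1. All 22 TSS peaks consisted only of 75 bp words found once in the genome, against 3 of the 18 other peaks (16.7%). The other arms were counted by peaks with at least 90% of such words. In their repeat-poor bins the split was alike, with 500 of 504 TSS peaks (99.2%) and 84 of 513 other peaks (16.4%). In their repeat-rich bins it was 42 of 87 TSS peaks (48.3%) and 14 of 864 other peaks (1.62%). Peaks over histone cluster genes were not set aside there.

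The body peaks differed in sequence. In Asator, a gene for a tubulin-binding kinase, the 317 bp peak at chr4:486568-486884 was unique and intronic. It lay between the first and the second of 5 starts, 2110 bp from the first and 535 bp from the second. In Mitf the peak at chr4:1199630-1200738 was 1109 bp wide, also intronic, 772 bp from the nearest start, and its GC content was 4.26%. Only 17.8% of its words were unique. Its centre is shown because the peak is a run of short repeats of A and T, read on the plus strand.
Mitf intron peak, chr4:1200124-1200243, plus strand: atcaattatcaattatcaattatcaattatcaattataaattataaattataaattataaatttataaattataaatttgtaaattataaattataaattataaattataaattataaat
Whether the reads at this repeat came from this intron was not tested. Of the TSS-bound genes, Rnf11 had 2 more peaks in its body and CG11360 had 3 more. Those of Rnf11, at chr4:320488-321016 and chr4:323109-323815, overlapped an annotated Stalker2 insertion and had 0% unique words. Those of CG11360 lay between chr4:682601 and chr4:683151 in an intron with INE-1, R1A1 and Tc1 insertions, with 0% to 70.9% unique words.

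The 11 peaks in neither a start nor a gene body lay mostly in repeats. A group of 5 peaks at chr4:591611-595936, between CG1909 and onecut, fell on R1A1 and INE-1 insertions with 34% to 61.1% unique words. The 1358 bp peak in this group was the widest of the chromosome. At the distal end, 4 peaks at chr4:1288704-1346714, beyond Cadps, had 0% to 16.6% unique words, and 3 of them overlapped HeT-A or TART telomeric elements. The remaining 2 peaks were unique, the one before pan and a 176 bp peak at chr4:424696-424871, 19040 bp from the nearest start, that of lgs.

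**Figure D5:**
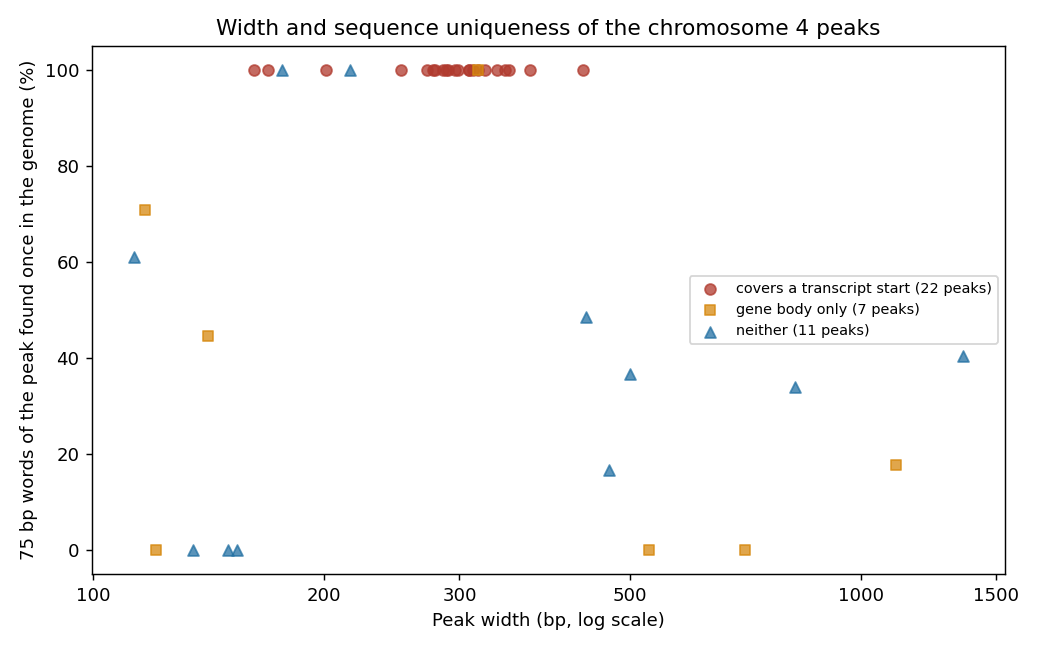
Width in bp (x axis, log scale) against the percent of 75 bp words found once in the genome (y axis) for the 40 peaks of chromosome 4. The 22 peaks over a transcript start all lie at 100% with widths of 162 to 434 bp, and 15 of the 18 other peaks lie below 90%.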

How the data were processed

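Chromatin of 6 libraries was sequenced, and the deposited peak list of the 2 Myc-CycGdeltaP ChIP replicates was analysed. The authors removed reads of low base quality, used Bowtie2 2.1.0 at default settings for alignment to dm6, called peaks with MACS2 2.1.0 for each replicate against its input, retained those passing the irreproducible discovery rate and merged them with bedtools. The deposited columns are peak starts and ends in bp, with no depth, score or signal. The mock libraries are not named in the peak calling and were not analysed here. At these settings a read with several equal matches is given 1 of them, so peaks in repeats may belong to another copy.

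Genes came from Ensembl release 115 (FlyBase 6.54) and sequence and soft-masked repeats from the RefSeq dm6 genome. The study used an earlier annotation of this build. Coordinates count from 1. A gene was TSS-bound when any annotated transcript start lay in a peak, and bound in the body when a peak overlapped it by at least 1 bp elsewhere. Uniqueness is the share of 75 bp words that occur once in dm6 on either strand. Motifs were searched within 100 bp of the start on both strands, or, on the gene's strand only, within 10 bp (initiator) and from 20 to 40 bp before the start (TATA box). DRE and CGATA matches overlap.

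The members and lists were chosen with earlier results of these data known. Named are the bound genes, except 1 that is counted but not reported by name here, unbound genes of the lists, the 5 unbound genes nearest to a peak and the 5 longest. Some unbound genes in no list are named as well. Of 60 list entries, 1 had no match. No test was made, because the list holds no value per sample. The counting rules were tested on simulated peaks and sequence. Python 3.11.15, numpy 2.4.6 and matplotlib 3.10.9 were used.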

Additional observations from a re-analysis of the deposited data

How the results depend on the processing

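Of 25 alternatives, 20 held a count within 1.5 times of its value, or another measure within its spread, and 5 moved it further. Counting only peaks at or above the median width of the list (365 bp, 10 of the 40 peaks) left 2 TSS-bound genes and a TSS share of peaks of 20%. Counting only the 30 narrower peaks left 1 gene bound in the body, and counting only the 25 peaks with at least 90% unique words also left 1 such gene, with a TSS share of 88%. The number of TSS-bound genes stayed at 19 to 24 in the other alternatives, which were protein-coding transcripts only, the first start only, starts within 100 or 500 bp of a peak, narrower peaks, unique peaks, the left-out genes included and the RefSeq annotation. RefSeq gave 21 TSS-bound genes, and 21 were shared with Ensembl. The RefSeq annotation, the peaks without a mobile element, the CGATA word, the motif counts by peak and the comparison by repeat range were added after the data had been seen. No paired analysis was possible because the list merges both replicates, and no replicate could be left out for the same reason. The depth of the libraries and the height of the peaks are not in the list, so weaker binding at an unbound gene cannot be told apart from none.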
